A study of Rattus norvegicus with 24 samples.

Results

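The prefrontal cortex was set against 5 other brain regions of the rat. It is represented by the 4 arrays whose titles name it, of 24 arrays in all, and the other regions are the dorsal striatum, the ventral striatum, the hippocampus, the substantia nigra with the ventral tegmental area (SN/VTA) and the vermis of the cerebellum, with 4 arrays each. Every region was measured once in each of 4 strain groups of male rats: Sprague-Dawley rats exposed to polychlorinated biphenyls (SDpcb, 4 rats), Sprague-Dawley controls (SD, 8 rats), spontaneously hypertensive rats (SHR, 8 rats) and Wistar-Kyoto controls (WKY, 8 rats). All 28 rats were between postnatal day 55 and 65. The labels give neither the dose and timing of the exposure nor whether each array held a pool of animals. Values are linear MAS5 signals, and a difference is the log2(signal + 1) of the prefrontal cortex minus the mean of the other 5 regions of the same strain group, so each gene has 4 differences.

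The prefrontal cortex is a layered sheet in which most neurons are glutamatergic projection neurons. Upper layers send axons mainly to other cortex and deep layers to the striatum, thalamus and brainstem. A minority are GABAergic interneurons, which also release peptides such as VIP, CCK and somatostatin and inhibit projection neurons or one another. The striatum holds almost only GABAergic medium spiny neurons, the SN/VTA holds dopamine neurons, and the vermis holds granule and Purkinje cells, so each reference region has its own defining transcripts.

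The 3 genes taken as markers of this region were highest there in every strain group. Vip encodes vasoactive intestinal peptide, made by a class of cortical interneurons. Its signal was 1684 in the SDpcb, 1266 in the SD, 1604 in the SHR and 1377 in the WKY prefrontal cortex, against a median of 196 and a highest value of 747 on the 20 other arrays. Cck, the precursor of the peptide cholecystokinin, had signals of 2875, 3190, 5342 and 3389 in the prefrontal cortex in the same order of strain groups, against a median of 706 and a highest value of 2209 elsewhere. Neither gene's prefrontal range overlapped that of the other arrays. Mlip, which encodes a lamin-interacting protein first described in muscle, had prefrontal signals of 3071, 2038, 1832 and 1804, against a median of 387 and a highest value of 1224 elsewhere. In all 3 cases the hippocampus came nearest. The log2 difference was 3.47 ± 0.66 for Vip (limma, adjusted p = 0.00047), 2.91 ± 0.46 for Cck (adjusted p = 5.8e-05) and 2.64 ± 0.21 for Mlip (adjusted p = 7.0e-09), each as estimate ± SE over 4 strain groups and higher in 4 of 4. These p-values measure the spread between arrays of 4 strain groups, with the 6 regions of a group taken from one set of rats, and in tissue RNA fewer cells of a type and less RNA per cell cannot be told apart.

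**Figure D1:**
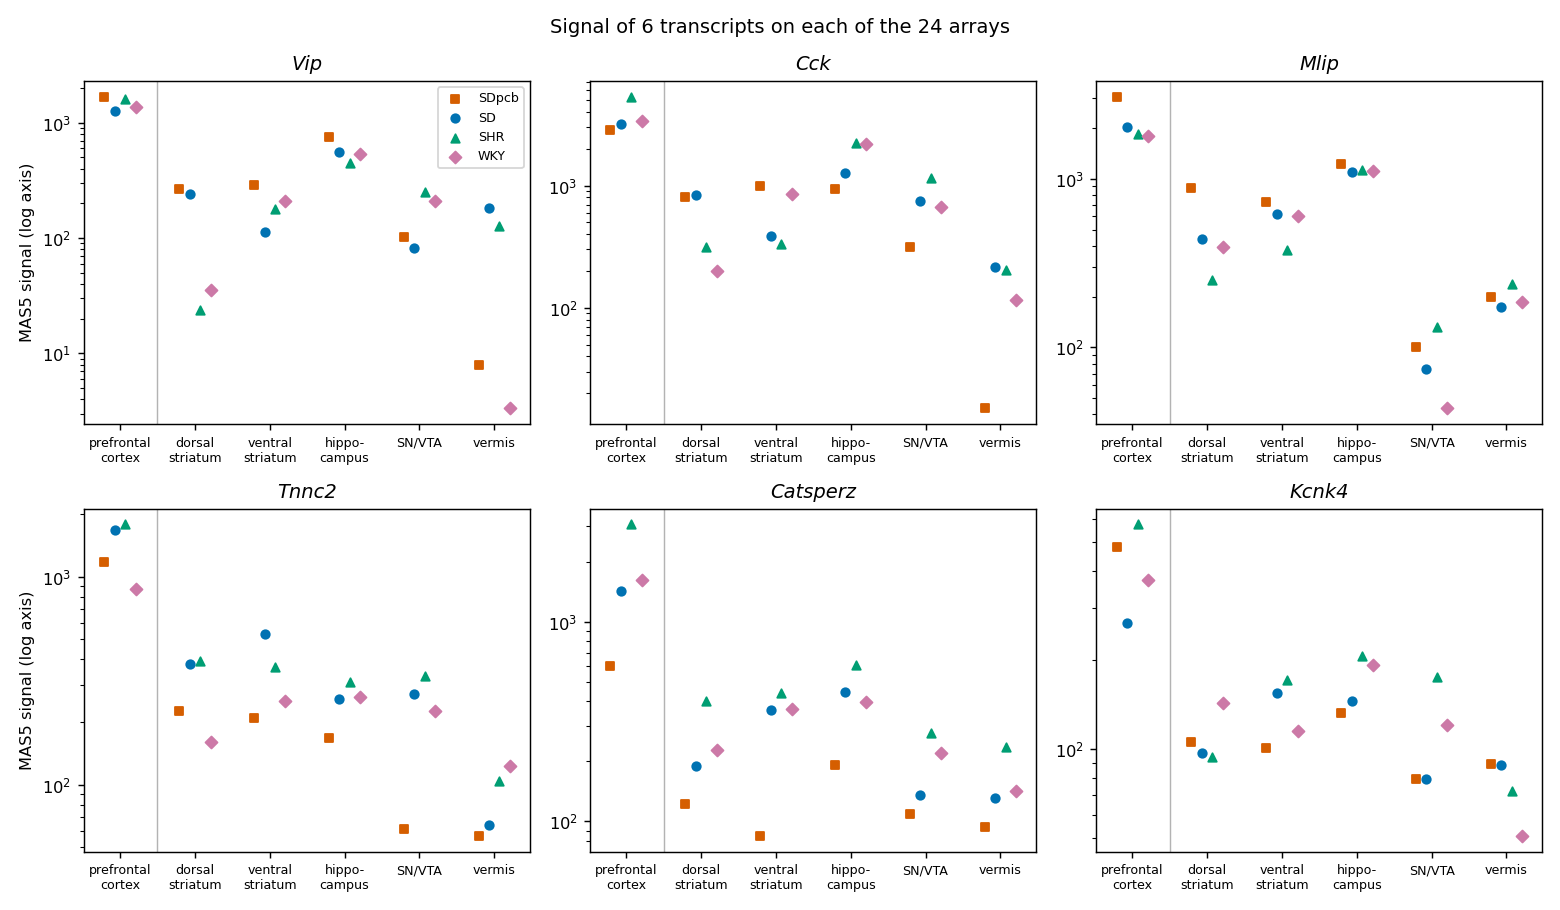
MAS5 signal (log axis) of Vip, Cck, Mlip, Tnnc2, Catsperz and Kcnk4 on each of the 24 arrays, 1 point per array, with regions along the x axis and strain groups by colour and symbol. All 4 prefrontal points of Vip, between 1266 and 1684, lie above the highest other point, 747 in the hippocampus.

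Against the hippocampus alone, Vip and Cck did not pass the test. The pairwise log2 difference of the prefrontal cortex from the hippocampus was 1.39 for Vip (limma, adjusted p = 0.43) and 1.22 for Cck (adjusted p = 0.28), although both were higher in the prefrontal cortex of all 4 strain groups. Against the vermis the same differences were 5.57 and 5.23. Mlip was 0.91 above the hippocampus, under the log2 minimum (adjusted p = 0.052).

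The Vip promoter is shown because Vip had the largest difference of the genes called higher and its promoter holds the core of a cyclic AMP response element, the motif through which CREB family factors act. The letters TGACGTC were searched for on both strands in the RefSeq promoter table, which gives 250 bases before to 50 after each gene start. Of the 54 genes called higher that were picked by the naming rules given under processing, 39 had an entry, and 4 of these held the motif. Other called genes mentioned in the text are not among the 54. Capitals mark it, or its reverse complement, or where both overlap their joint length.
Vip promoter, GRCr8 chr1:44470230-44470529, plus strand: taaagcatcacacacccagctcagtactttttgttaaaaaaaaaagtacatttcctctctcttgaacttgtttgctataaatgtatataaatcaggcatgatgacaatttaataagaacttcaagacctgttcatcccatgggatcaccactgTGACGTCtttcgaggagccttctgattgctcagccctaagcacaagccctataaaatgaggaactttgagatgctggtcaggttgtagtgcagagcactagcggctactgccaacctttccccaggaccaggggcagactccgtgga
Hs3st2 promoter, GRCr8 chr1:185387213-185387512, plus strand: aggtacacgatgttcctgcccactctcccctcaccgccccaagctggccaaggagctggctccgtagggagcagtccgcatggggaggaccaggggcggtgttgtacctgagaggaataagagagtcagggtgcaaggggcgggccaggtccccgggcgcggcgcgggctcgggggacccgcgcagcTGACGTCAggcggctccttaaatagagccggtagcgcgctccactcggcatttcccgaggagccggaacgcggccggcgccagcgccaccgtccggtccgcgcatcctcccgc
Neurod6 promoter, GRCr8 chr4:86180106-86180405, minus strand: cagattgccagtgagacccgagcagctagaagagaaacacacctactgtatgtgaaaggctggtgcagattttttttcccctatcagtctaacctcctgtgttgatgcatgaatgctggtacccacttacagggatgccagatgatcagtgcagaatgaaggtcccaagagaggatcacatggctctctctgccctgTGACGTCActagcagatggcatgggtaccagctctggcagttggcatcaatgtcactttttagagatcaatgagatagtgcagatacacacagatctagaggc
Egr2 promoter, GRCr8 chr20:21054392-21054691, minus strand: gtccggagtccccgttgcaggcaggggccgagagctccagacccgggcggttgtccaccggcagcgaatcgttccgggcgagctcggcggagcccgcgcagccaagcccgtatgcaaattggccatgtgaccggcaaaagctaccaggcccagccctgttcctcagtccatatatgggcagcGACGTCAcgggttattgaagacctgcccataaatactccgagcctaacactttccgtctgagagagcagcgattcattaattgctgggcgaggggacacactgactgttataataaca
Its first base lies at -97 in Vip, -63 in Hs3st2, -53 in Neurod6 and -68 in Egr2, counted from the gene start. The motif occurred in 3.22% of all 33469 promoters in the table and in 5.80% of the 7555 tested genes that had an entry. Among the 180 genes called higher that had one it occurred in 10, or 5.56%, so its share among them was close to that among all tested genes. A match describes these letters only.

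One prefrontal array carried cerebellar transcripts. Gabra6, the GABA-A receptor subunit that marks cerebellar granule cells, had a signal of 2297 in the WKY prefrontal cortex and 97.0 (SDpcb), 47.1 (SD) and 28.8 (SHR) in the other 3 prefrontal arrays. The vermis arrays ran between 17285 and 24459. Pcp2, a Purkinje cell protein, had 668 in the WKY prefrontal cortex and 29.4 to 76.2 in the other 3, against 9371 to 13406 in the vermis. Ppp1r17, a phosphatase inhibitor of Purkinje cells, had 434 in the WKY prefrontal cortex and 38.8 to 93.7 in the other 3, against 7494 to 9215 in the vermis. Of the 22 genes in the list of granule and Purkinje cell markers, the WKY array was the highest of the 4 prefrontal arrays for 15. The summed signal of the list was 21267 in the WKY prefrontal cortex and 12138 to 18209 in the other 3, against 119200 to 144950 in the vermis. The ranges of the dorsal striatum, 20076 to 23184, and the ventral striatum, 12990 to 21427, included the WKY prefrontal sum. Those of the hippocampus, 12510 to 16852, and the SN/VTA, 12165 to 18938, lay under it. Counts of calls are given below with and without this array, and values of single genes with all arrays unless said otherwise. Of the 90 called genes picked by the naming rules given under processing, 85 had a log2 difference that moved by at most 0.5 without it. Among these 90, Ccn3 and Fosb lost their call. The 5 that moved further, Syndig1l, Nkx2-1, Cbln1, Gdf10 and Pkib, were all called lower. The part of cerebellar RNA in these results was not tested.

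**Figure D2:**
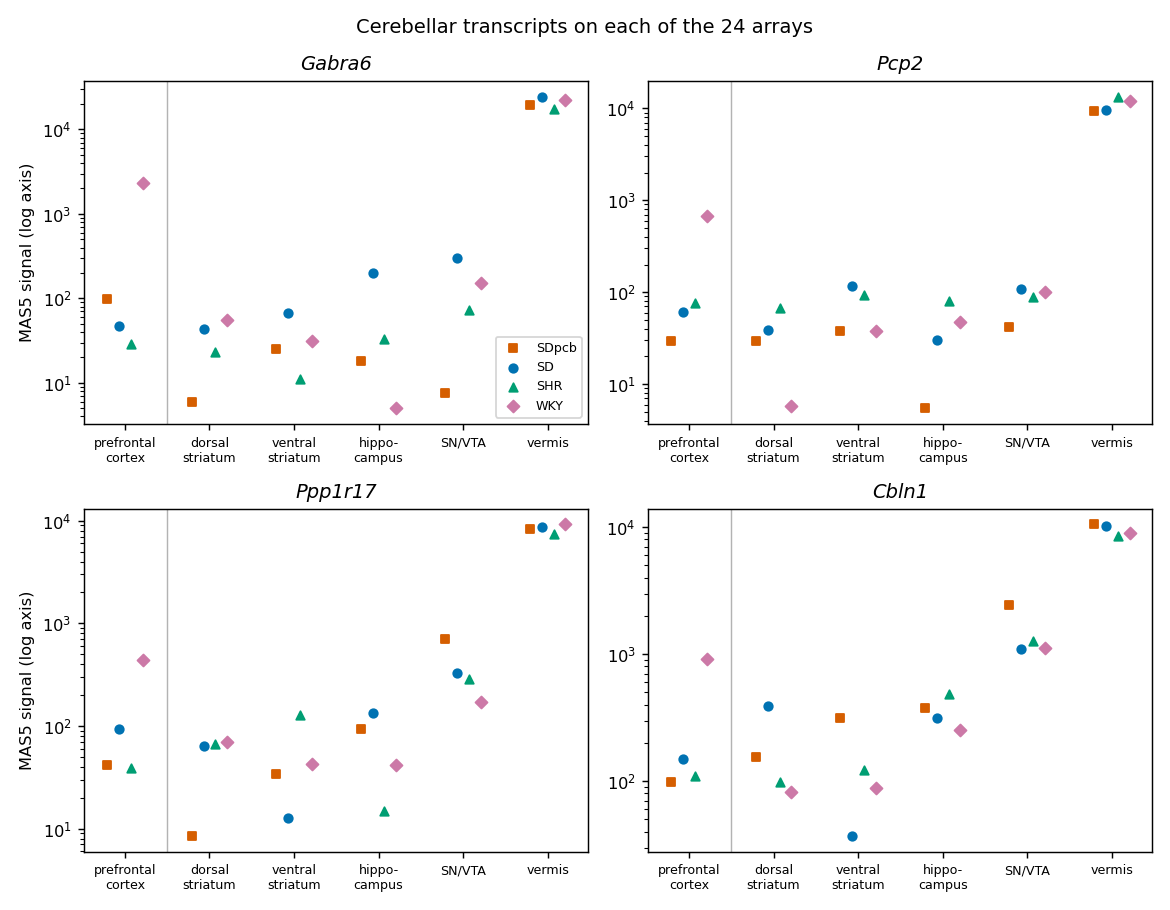
MAS5 signal (log axis) of 4 cerebellar transcripts on each of the 24 arrays, 1 point per array, with regions along the x axis and strain groups by colour and symbol. The WKY prefrontal point of Gabra6, at 2297, stands apart from the other 3 prefrontal points, at 28.8 to 97.0, and below the vermis.

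The arrays also differed in general brightness. Median signal ran from 89.0 to 148.9 on the 4 prefrontal arrays and from 92.5 to 183.8 on the other 20, and the SDpcb array was the dimmest of the 4 in each of the 6 regions. No pair of arrays held identical values, and prefrontal arrays correlated with one another at 0.866 to 0.909 on the log2 scale over probe sets. Detection calls are not given, so whether a dim probe set lies above background is unknown.

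Transcripts differed from the other regions in both directions. A probe set was called when its adjusted p was under 0.05 and its log2 difference at least 1 in size. Of 15521 probe sets tested, 440 were called higher (2.83%) and 292 lower (1.88%). Of the 440, 438 were higher in all 4 strain groups, and of the 292, 274 were lower in all 4. Over all tested probe sets 39.95% had the same sign in all 4. The calls were made on these same arrays, which favours agreement in sign among called probe sets. Without the WKY prefrontal array the counts were 426 higher (2.74%) and 329 lower (2.12%). With each array centred on its median instead, 669 were higher and 189 lower, which moves the share of higher calls to 78.0%, against 60.1% in the fit as described. The filter turned the balance round: with no filter on mean signal 506 were higher and 667 lower, a share of 43.1%, and with a minimum signal in at least 4 arrays 512 were higher and 587 lower, a share of 46.6%. Centring on the array median shifts the median of all genes to a log2 difference of 0.14, against -0.02 otherwise.

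Per gene, each represented by its brightest probe set, 241 of 9009 were called higher (2.68%) and 165 lower (1.83%). Without the WKY prefrontal array 237 were higher (2.63%) and 180 lower (2.00%). Of the 241 higher genes 25 lost their call without that array and 21 others gained one. Of the 165 lower genes 17 lost their call and 32 others gained one.

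The distance to the other regions was uneven. The prefrontal cortex differed least from the hippocampus, with 174 probe sets called higher (1.12%) and 197 lower (1.27%). It was followed by the ventral striatum, with 317 higher (2.04%) and 310 lower (2.00%), and the dorsal striatum, with 569 higher (3.67%) and 457 lower (2.94%). The SN/VTA gave 1046 higher (6.74%) and 731 lower (4.71%), and the vermis 1657 higher (10.7%) and 1241 lower (8.00%). Without the WKY prefrontal array the order by total calls was the same. The hippocampus then had 162 higher (1.04%) and 203 lower (1.31%), the ventral striatum 291 (1.87%) and 300 (1.93%), and the dorsal striatum 541 (3.49%) and 446 (2.87%). The SN/VTA had 1011 higher (6.51%) and 713 lower (4.59%) and the vermis 1677 (10.8%) and 1310 (8.44%).

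Few genes stood above every other region. A gene was counted here when it passed the same test against each of the 5 regions in turn, which 9 of 9009 did (0.0999%), or 14 (0.155%) without the WKY prefrontal array. Over probe sets 23 did (0.148%), or 25 (0.161%) without that array. The gene with the largest of these differences was Tnnc2, which encodes the calcium-binding troponin C of fast skeletal muscle. Its prefrontal signals were 1172 (SDpcb), 1678 (SD), 1788 (SHR) and 871 (WKY), against 56.5 to 528 on the other 20 arrays, and the groups did not overlap. Its log2 difference was 2.71 ± 0.25 (limma, adjusted p = 3.7e-08), and the smallest pairwise difference was 2.05, from the ventral striatum.

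Catsperz and Kcnk4, which are direct neighbours on the same strand of chromosome 1 in the GRCr8 annotation, were both among the 9. Catsperz encodes an auxiliary subunit of the CatSper calcium channel of sperm, and Kcnk4 the potassium channel TRAAK. Prefrontal signals of Catsperz were 603 (SDpcb), 1423 (SD), 3072 (SHR) and 1619 (WKY), and the other 20 arrays lay between 84.4 and 608. The SDpcb prefrontal array thus fell just under the highest other array, the SHR hippocampus, while each prefrontal array was the highest of its own strain group. Kcnk4 had prefrontal signals of 480 (SDpcb), 266 (SD), 575 (SHR) and 374 (WKY), against 50.8 to 206 elsewhere, without overlap. The log2 difference was 2.69 ± 0.18 for Catsperz (limma, adjusted p = 6.4e-10) and 1.83 ± 0.24 for Kcnk4 (adjusted p = 4.7e-06). Whether the neighbouring genes' probe sets read a shared transcript was not tested.

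The other 6 genes above every region were Ier5, Septin5, Col19a1, Mapk11, Cabp1 and Efna5. Ier5, an immediate early response gene, was higher by 1.86 ± 0.13 on the log2 scale, and Septin5, a septin of presynaptic terminals, by 1.85 ± 0.18. Col19a1, a collagen that hippocampal interneurons of the mouse also make, was higher by 1.70 ± 0.26, and Mapk11, the p38 beta kinase, by 1.66 ± 0.23. Cabp1, a neuronal calcium sensor, was higher by 1.64 ± 0.30, and Efna5, an ephrin ligand that guides axons, by 1.40 ± 0.15. All 6 were higher in 4 of 4 strain groups. Without the WKY prefrontal array Col19a1 no longer passed against every region, though it stayed called against their mean with 1.58 ± 0.30 (limma, adjusted p = 0.00076).

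**Figure D3:**
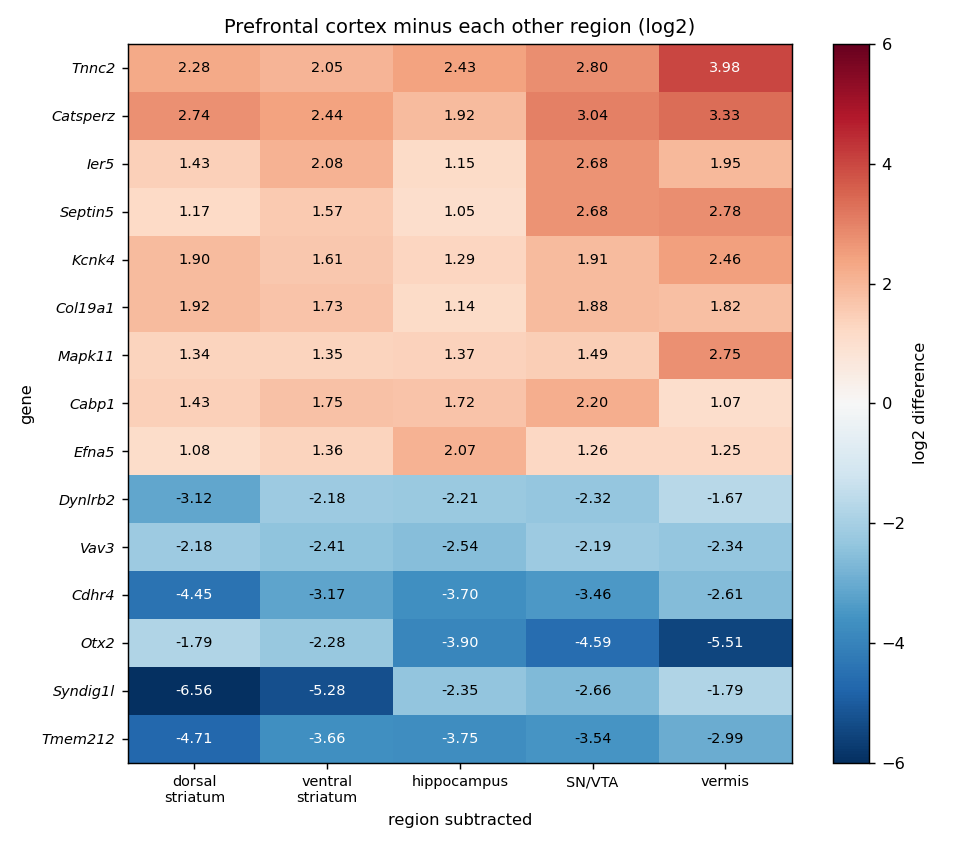
Log2 difference of the prefrontal cortex from each of the other 5 regions (columns) for 9 genes above all of them and 6 genes below all of them (rows), as limma estimates, with red for higher and blue for lower in the prefrontal cortex. Tnnc2 runs from 2.05 against the ventral striatum to 3.98 against the vermis, and Otx2 from -1.79 against the dorsal striatum to -5.51 against the vermis.

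Interneuron peptides went both ways. Of 12 tested, 4 were called higher and 3 lower, beside 2.68% and 1.83% of all genes, and the list median was 0.49 against -0.02 over all genes. Vip and Cck led, followed by Crhbp, a protein that binds corticotropin-releasing hormone, at 1.29 ± 0.37, and Crh, the hormone itself, at 1.26 ± 0.34. Sst (somatostatin) at 0.96 ± 0.13 and Npy (neuropeptide Y) at 0.79 ± 0.19 had adjusted p-values of 6.2e-06 and 0.0036 in limma but lay under the log2 minimum. The 3 lower genes, Tac1, Penk and Nts, encode precursors of substance P, enkephalin and neurotensin, and the first 2 are also peptides of striatal medium spiny neurons. Penk passed only against the dorsal and the ventral striatum, with pairwise differences of -3.4 and -3.1. It had 0.53 from the hippocampus, -0.63 from the SN/VTA and -0.29 from the vermis (limma, adjusted p = 0.074 to 0.38). Nts had prefrontal signals of 24.5 (SDpcb), 8.68 (SD), 80.9 (SHR) and 53.0 (WKY), against 591 to 861 in the ventral striatum and 813 to 1515 in the hippocampus. It was lower by 3.05 on the log2 scale over all 5 regions, and the vermis, at 6.09 to 37.4, overlapped the prefrontal range.

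General GABA neuron genes gave 1 call in each direction, beside 2.68% called higher and 1.83% called lower of all genes. Of 15 tested, Lamp5 alone was called higher, at 1.499 ± 0.20, and Calb2 alone lower, at -2.25 ± 0.23. Lamp5 encodes a membrane protein of one interneuron class and of some projection neurons. Its pairwise difference was 0.29 from the dorsal striatum (limma, adjusted p = 0.50) and 0.46 from the ventral striatum (adjusted p = 0.30). Calb2 encodes the calcium binding protein calretinin, which cerebellar granule cells also contain, and its prefrontal signals of 60.5 to 227 compared with 1831 to 2861 in the vermis and 2245 to 2518 in the SN/VTA. The GABA-synthesising enzymes Gad1 and Gad2 had differences of -0.48 ± 0.10 and -0.80 ± 0.19 (limma, adjusted p = 0.00065 and 0.0033). Of the 15 genes, 5 had an adjusted p under 0.05 with a negative difference and 2 with a positive one.

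Both lists of cortical layer markers had genes called higher and none called lower. Beside these and all later list counts stand 2.68% of all genes called higher and 1.83% called lower. Each list held 1 gene with an adjusted p under 0.05 and a negative difference too small for a call. Calb1 in the upper layer list was at -0.62 ± 0.15 (limma, adjusted p = 0.0042). Pcp4 in the deep layer list was at -0.78 ± 0.11 (adjusted p = 1.0e-05). With a positive difference 8 upper and 9 deep layer genes had such a p. Of 12 upper layer genes tested, 5 were called higher and 0 lower, with a list median of 0.76. They were Cux2, a homeobox factor of upper layer neurons, at 1.64 ± 0.15, Ccn3 at 1.61 ± 0.51, Dkk3 at 1.32 ± 0.13, Lmo4 at 1.24 ± 0.17 and Lhx2 at 1.13 ± 0.22. Against the hippocampus alone Cux2 was higher by 1.72 (limma, adjusted p = 6.9e-06). Ccn3 (0.18), Dkk3 (0.20), Lmo4 (0.47) and Lhx2 (-0.13) did not pass there (adjusted p = 0.27 to 0.93). Cux2 varied little among strain groups, with prefrontal signals of 5834 (SDpcb), 4869 (SD), 4692 (SHR) and 5127 (WKY), against 715 to 3075 on the other 20 arrays. Ccn3 lost its call without the WKY prefrontal array (adjusted p = 0.083), and also without the SD one or the SHR one.

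Of 16 deep layer genes tested, 8 were called higher and 0 lower, with a median of 0.95. Hs3st2, an enzyme that sulphates heparan chains, was higher by 2.40 ± 0.42, with prefrontal signals of 597 (SDpcb), 438 (SD), 707 (SHR) and 322 (WKY), against 10.7 to 231 elsewhere. Fezf2, a transcription factor that specifies subcerebral projection neurons, was higher by 2.13 ± 0.35. Its prefrontal signals, 377 to 652, overlapped those of the hippocampus, 236 to 611. The phosphodiesterase Pde1a, at 1.91 ± 0.44, the Eph receptor Ephb6, at 1.90 ± 0.27, and Tox, Rprm, Nxph3 and Crym, at 1.14 to 1.68, completed the 8. Against the hippocampus alone Hs3st2 passed, with a pairwise difference of 2.31 (limma, adjusted p = 0.0093). Fezf2 (0.33), Pde1a (0.54) and Ephb6 (1.07) did not pass there (adjusted p = 0.078 to 0.79). Foxp2, a factor of deep layer and striatal neurons, had a difference of -1.05 ± 0.38 and did not pass (adjusted p = 0.053).

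Transcription factors of projection neurons gave 5 called higher and 0 lower of 13 tested, with a median of 0.92. Neurod6 was higher by 1.96 ± 0.32 over the mean of the other regions. Against the hippocampus its pairwise difference was -0.91 and did not pass (adjusted p = 0.24). Its prefrontal signals were 1060 (SDpcb), 855 (SD), 738 (SHR) and 926 (WKY), against 1580 to 1796 in the hippocampus and at most 529 in the remaining regions. Neurod2 at 1.38 ± 0.34, Egr1 at 1.20 ± 0.15, Lhx2 at 1.13 ± 0.22 and Bhlhe22 at 1.09 ± 0.26 were the others. Slc17a7, the vesicular glutamate transporter of cortical and hippocampal neurons, had 1584 to 2709 in the prefrontal cortex, an overlapping 2110 to 3326 in the hippocampus and at most 1155 elsewhere, with a pairwise difference of -0.20 from the hippocampus (adjusted p = 0.88). It was the only 1 of 20 glutamate receptor and transporter genes called, at 1.96 ± 0.34, beside 2.68% of all genes called higher.

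**Figure D4:**
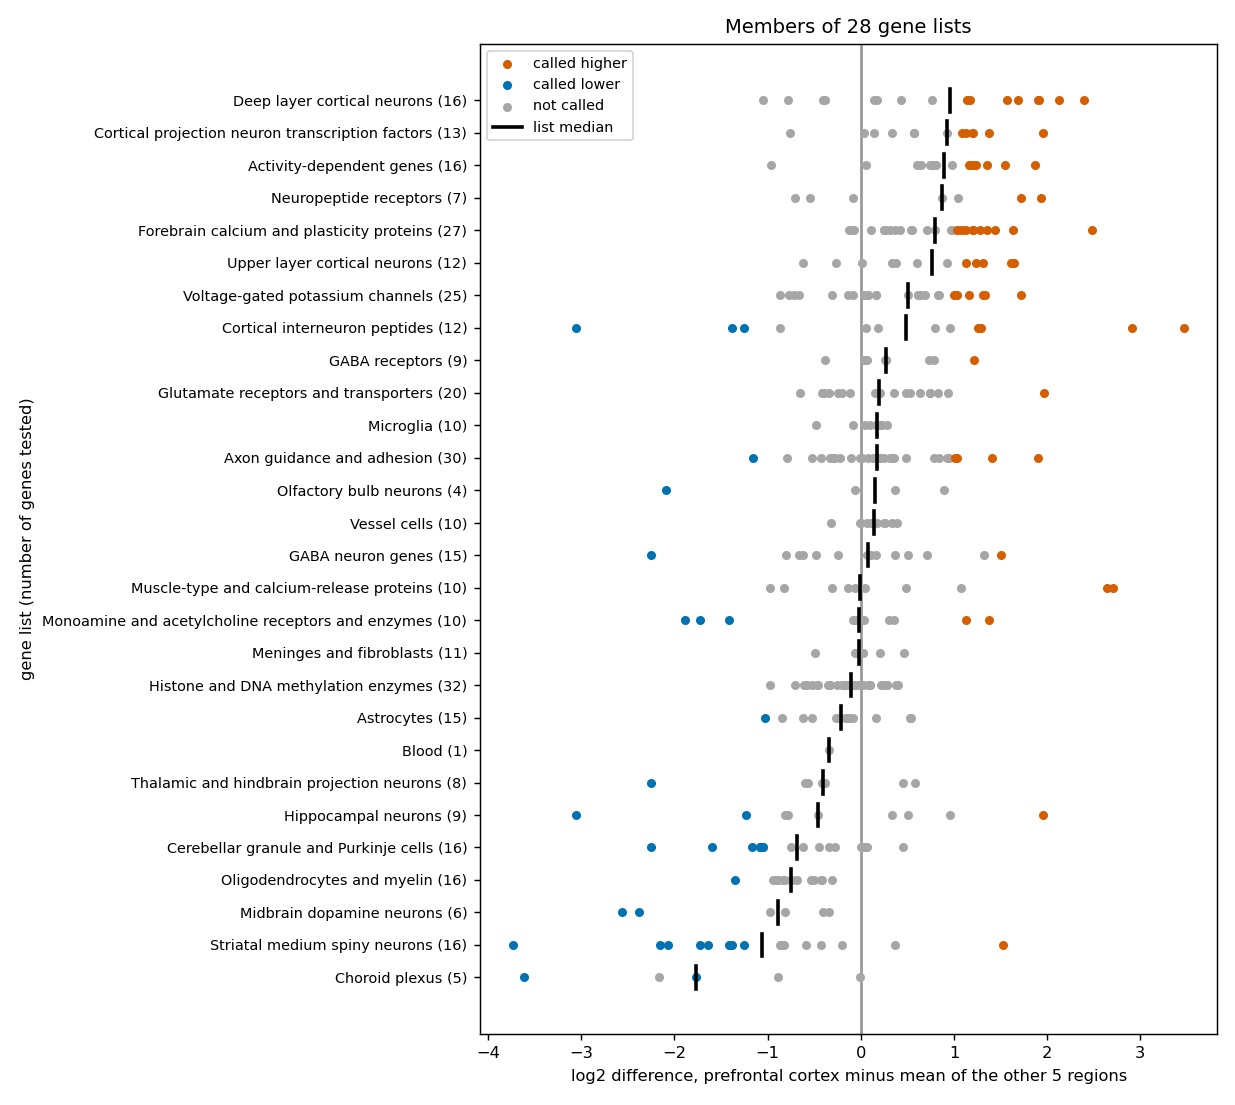
Log2 difference (prefrontal cortex minus mean of the other 5 regions) of every tested member of 28 gene lists, 1 point per gene, coloured by call, with the list median as a black bar and lists ordered by it. Deep layer genes have the highest median, 0.95, and choroid plexus genes the lowest, -1.77.

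Calcium and plasticity proteins of forebrain neurons gave 10 called higher and 0 lower of 27 tested, with a median of 0.80. Nrgn, which encodes the calmodulin-binding postsynaptic protein neurogranin, was higher by 2.48 ± 0.35, with prefrontal signals of 5314 (SDpcb), 4417 (SD), 7226 (SHR) and 4467 (WKY). In the vermis they were 15.9 to 217, whereas in the dorsal striatum, at 3188 to 4040, and the hippocampus, at 2076 to 4562, they came near or overlapped the prefrontal range. Cabp1, the scaffold protein Shank1 at 1.45 ± 0.14, the CaM kinase inhibitor Camk2n1 at 1.36 ± 0.12 and the kinase subunit Camk2a at 1.09 ± 0.23 were among the others. Camk2n1 fell under the log2 minimum, to 0.96, when the vermis was left out of the mean.

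Homer1, a postsynaptic scaffold with a short form induced by activity, depended on the probe set. The brightest one had a log2 difference of 0.98 ± 0.09 and missed the minimum of 1, while 1.03 was reached without the WKY prefrontal array. A pair of other probe sets of the gene had differences of 2.67 ± 0.20 and 2.52 ± 0.22, and a further one 1.18 ± 0.42. Homer1 was singled out after its values were seen. Which transcript form each probe set reads was not tested.

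Activity-dependent genes were higher in 7 of 16 tested and lower in 0, with a median of 0.89. Egr2, an immediate early transcription factor, had a prefrontal signal of 408 in the SDpcb array and of 3246 (SD), 3137 (SHR) and 1752 (WKY) in the others. Its difference from the other regions was 0.36 in SDpcb and 2.18 to 2.61 in the other strain groups, with a fitted value of 1.87 ± 0.26. Arc, a synaptic effector gene, had the same low array, at 122 in SDpcb and 350 to 1000 in the others, and a fitted difference of 1.54 ± 0.39. The summed signal of the activity list was 47368 in the SDpcb prefrontal cortex and 56478 to 78161 in the other 3. Not every gene followed this order, since the difference of Nr4a1 was 1.93 in SDpcb and 0.87 to 1.40 in the other strain groups. With 1 array per strain group the contrast of SDpcb with the others has no replicate and was not tested.

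Of the remaining activity genes, Nr4a1 was higher by 1.36 ± 0.35, Bdnf, a neurotrophin, by 1.21 ± 0.33 and Nr4a3 by 1.16 ± 0.20. Fosb, at 1.24 ± 0.44 (limma, adjusted p = 0.046), lost its call without the WKY (0.93), SD or SHR prefrontal array. Arc lost its call without the SHR prefrontal array and Nr4a1 without the SDpcb one. Against the dorsal striatum Egr2 had a pairwise log2 difference of -0.37 (limma, adjusted p = 0.53). Nr4a1 had -0.19 there, Fosb -0.07, Egr1 0.14 and Arc 0.22, and none of these passed. In the pairwise test against the ventral striatum Egr2 and these genes had adjusted p-values of 0.20 to 0.72 in limma. The same genes were higher by 2.16 to 3.67 against the SN/VTA and by 1.95 to 3.76 against the vermis. Scg2, a secretory granule protein, differed in the other direction, with -0.96 ± 0.14.

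Receptor genes went both ways. Of 10 monoamine and acetylcholine genes tested, 2 were called higher, the serotonin receptor Htr2a at 1.38 ± 0.28 and the muscarinic receptor Chrm3 at 1.13 ± 0.30. Htr2a had prefrontal signals of 446 (SDpcb), 544 (SD), 205 (SHR) and 245 (WKY), against 57.1 to 362 on the other arrays. The groups overlap, but the prefrontal cortex was the brightest region in each strain group. The dopamine receptors Drd1 and Drd2 and the serotonin receptor Htr2c were called lower, by 1.72, 1.41 and 1.89 on the log2 scale. Pairwise differences of Drd1 and Drd2 were -4.29 and -4.47 from the dorsal striatum and -4.11 and -3.64 from the ventral striatum. For Drd1 they were -0.72 from the hippocampus, 0.38 from the SN/VTA and 0.13 from the vermis, and none of these passed. Those of Drd2 were 0.67, -0.92 and 1.30 in the same order, and only the last passed (limma, adjusted p = 0.030). Drd2 lost its call without the SDpcb prefrontal array. Of 36 genes in this list 34 are on the array and 10 passed the filter on mean signal, so most of the list, including Th, was too dim to be tested.

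Among neuropeptide receptors, 2 of 7 tested were called higher and 0 lower. Sstr1, a somatostatin receptor, had prefrontal signals of 573 (SDpcb), 588 (SD), 571 (SHR) and 655 (WKY), against 38.2 to 463 elsewhere, and was higher by 1.94 ± 0.31. Npy1r, a neuropeptide Y receptor, had 832, 687, 660 and 870 in the same order, against 13.9 to 602, and was higher by 1.72 ± 0.25. In both cases the prefrontal arrays did not overlap the other 20. Gabra5 was the only 1 of 9 GABA receptor genes called, at 1.22 ± 0.23, with prefrontal signals of 1046 to 1760 and hippocampal ones of 1781 to 3007, a pairwise difference of -0.87 that did not pass (adjusted p = 0.088).

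Potassium channel genes gave 6 called higher and 0 lower of 25 tested, beside 2.68% and 1.83% of all genes, with a median of 0.51. Kcnv1, a silent subunit that modifies other channels, was higher by 1.72 ± 0.33 and Kcnmb4, an accessory subunit of the large calcium-activated channel, by 1.31 ± 0.15. Kcnj4, an inward rectifier, was higher by 1.33 ± 0.22 against the mean of the 5 regions. Its prefrontal signals of 274 to 412 lay far above those of the SN/VTA and vermis, at 14.0 to 33.5, and under those of the dorsal striatum, at 472 to 777. Axon guidance and adhesion genes gave 4 higher and 1 lower of 30, beside the same 2.68% and 1.83% of all genes. Ephb6, Efna5, Plxna1 and Epha4 were higher. Flrt3 was lower by 1.16, a call that was lost without the SDpcb prefrontal array. Of 10 muscle-type and calcium-release proteins only Tnnc2 and Mlip were called, and the rest ran from -0.97 to 1.08, with a list median of -0.00.

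Leaving out the WKY prefrontal array moved the list counts by at most 1 gene in each direction in all lists but the cerebellar one. Upper layer genes then had 4 called higher, projection neuron factors 4, calcium and plasticity proteins 9 and potassium channels 5, with 1 potassium channel called lower. Activity-dependent genes still had 7 called higher, with Homer1 gained and Fosb lost, and Scg2 called lower. Crhbp, Bhlhe22, Camk2a, Ncald, Kcnh1 and Kcnj6, which the naming rules did not pick, also lost their calls without that array. Sst and Kcnip3 gained a call as higher, and Nrp2 and Enpp2 as lower.

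Other leading genes belong to none of these groups. Cbln2, a synapse organiser, was higher by 2.61 ± 0.25, with prefrontal signals of 7493 to 8474 against 4246 to 6691 in the SN/VTA and at most 2728 elsewhere. Syt17, a synaptotagmin family member, was higher by 2.56 ± 0.35, Pter, a phosphotriesterase-related enzyme, by 2.51 ± 0.29, and Slc30a3, which loads zinc into glutamatergic vesicles, by 2.28 ± 0.34. Bmper, a regulator of BMP signalling, was higher by 2.28 ± 0.44, Ephx4 by 2.26 ± 0.31, Necab3 by 2.20 ± 0.20 and Vxn, the gene of vexin, by 2.19 ± 0.23. Fitted values of Nptxr, a neuronal pentraxin receptor, Tafa1 and Mpped1 were 2.09, 2.08 and 2.07. Pairwise log2 differences from the hippocampus alone were 0.05 for Pter, 0.25 for Nptxr, 0.38 for Slc30a3 and 0.46 for Mpped1. They were 0.50 for Vxn, 0.53 for Syt17 and -0.72 for Tafa1. None of these passed (limma, adjusted p = 0.19 to 0.97). Bmper (1.67) and Necab3 (0.85) did not pass there either, whereas Cbln2 (1.81) and Ephx4 (1.78) did. Alb, which encodes the liver and plasma protein albumin, was called at 2.13 ± 0.57, with prefrontal signals of 340 (SDpcb), 695 (SD), 593 (SHR) and 488 (WKY), against 1.06 to 447 on the other arrays, an overlap at the SDpcb array. It lost its call without the SDpcb prefrontal array.

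**Figure D5:**
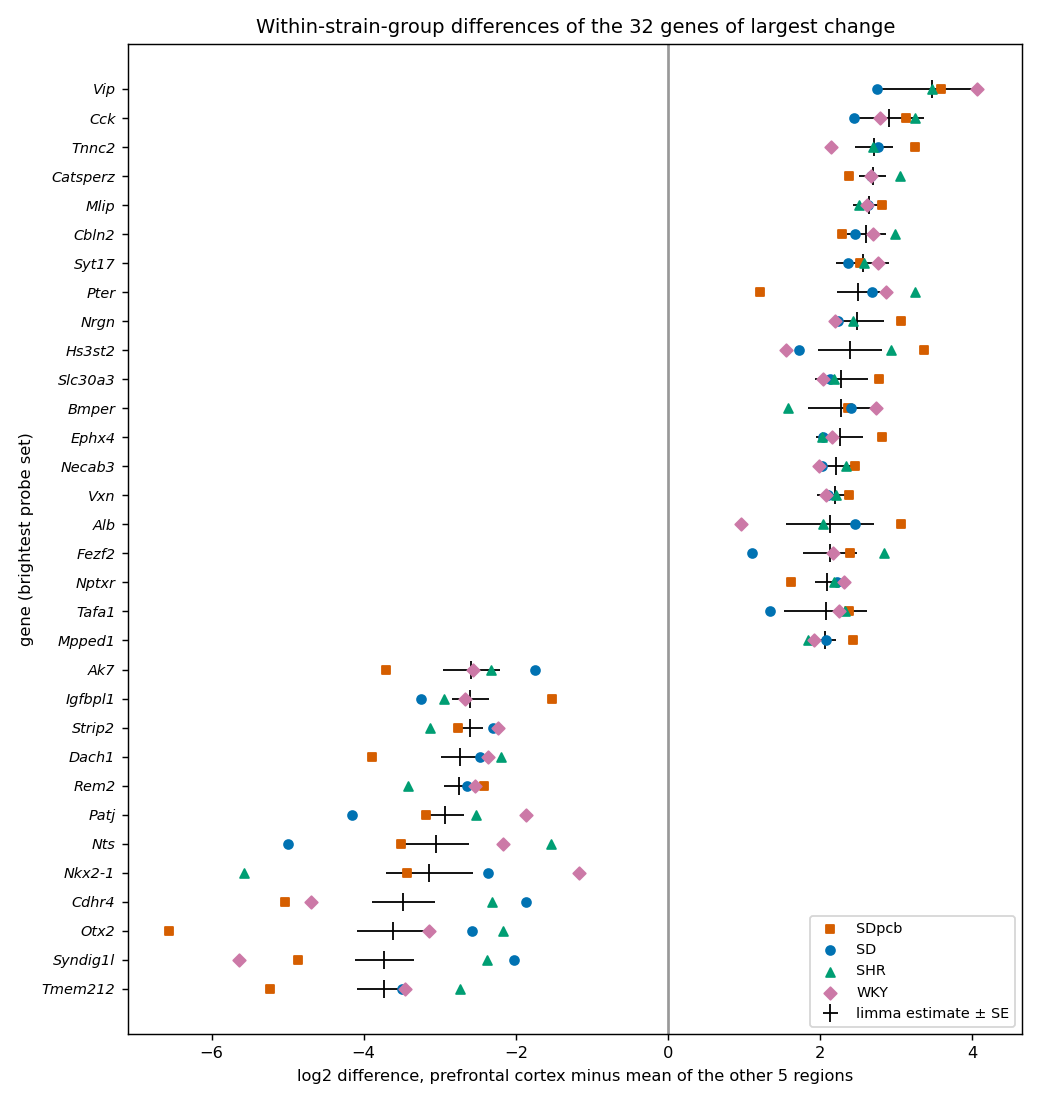
Log2 difference, prefrontal cortex minus mean of the other 5 regions, of the 20 highest and 12 lowest named genes, with 1 point per strain group and the limma estimate ± SE as a bar. Only called genes with the same sign in all 4 strain groups were eligible, so agreement in sign follows from the choice. The lower genes are spread more widely, with Otx2 from -2.17 to -6.56.

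Genes lower in the prefrontal cortex included transcripts typical of the striatum. Of 16 striatal medium spiny neuron genes tested, 8 were called lower and 1 higher, with a median of -1.06. Syndig1l was lowest, by 3.73 on the log2 scale, with prefrontal signals of 10.4 (SDpcb), 66.7 (SD), 69.7 (SHR) and 4.59 (WKY), against 1943 to 2362 in the dorsal striatum and 837 to 1007 in the ventral striatum. Rgs9, an inhibitor of dopamine receptor signalling, was lower by 2.15 and Adora2a, an adenosine receptor, by 2.07. Adora2a had prefrontal signals of 34.5 to 75.8 against 3183 to 5043 in the dorsal striatum. Ankrd63 went against the list at 1.53 ± 0.36.

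The genes below every other region were 16 (0.178%), or 19 (0.211%) without the WKY prefrontal array, and over probe sets 23 (0.148%) or 27 (0.174%). Tmem212 was lowest, by 3.73, with prefrontal signals of 23.4 (SDpcb), 60.9 (SD), 49.99 (SHR) and 30.3 (WKY), against 143 to 1872 on the other 20 arrays, and no overlap. Cdhr4, a cadherin-related protein, had 8.01 to 144 in the prefrontal cortex against 141 to 2070 elsewhere, a slight overlap, and was lower by 3.48. The adenylate kinase Ak7 was lower by 2.59 and the dynein light chain Dynlrb2 by 2.30. Both proteins are known parts of motile cilia in other cells. Vav3 had the most even pattern, lower by 2.18 to 2.54 against each region in turn.

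Otx2 and Nkx2-1, transcription factors of other brain territories, were dim in the prefrontal cortex. Otx2 had prefrontal signals of 3.52 (SDpcb), 90.9 (SD), 59.7 (SHR) and 30.9 (WKY), against 442 to 2860 in the vermis and 483 to 991 in the SN/VTA, and was lower by 3.61. Its difference from the dorsal striatum, -1.79, was the smallest, and without the WKY prefrontal array it no longer passed against every region. Nkx2-1 had 5.16 to 56.1 in the prefrontal cortex against 354 to 543 in the ventral striatum and 190 to 2111 in the SN/VTA, and was lower by 3.14. Without detection calls it is not known which of these prefrontal signals lie above background.

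Lists of the vermis, midbrain, hippocampus and olfactory bulb held genes called lower. Of 16 cerebellar genes tested, 6 were called lower and 0 higher, or 8 lower without the WKY prefrontal array, and the list median was -0.68 with all arrays and -1.33 without that one. Pcp2 was called only without it, at -1.47 against -0.45 with it, and likewise Ppp1r17, at -1.82 against -1.05. Cbln1, a synapse organiser of granule cells, was lower by 1.60, with a difference of 1.01 in WKY and -3.12 to -1.89 in the other strain groups. Cbln1 lost its call without the SDpcb, SD or SHR prefrontal array. With the vermis left out of the mean, Cbln1 (-0.60), Gdf10 (-0.40) and Zic4 (-0.64) lost theirs too.

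Of 6 midbrain dopamine genes tested, Ret, a receptor tyrosine kinase, and Calcr, the calcitonin receptor, were called lower, by 2.56 and 2.38. Neither call was particular to the midbrain. The pairwise difference of Ret was -4.85 from the SN/VTA and -4.62 from the vermis. For Calcr it was -4.88 from the SN/VTA and -4.26 from the ventral striatum. Slc6a3, the dopamine transporter, was too dim over all arrays to be tested, with 2.99 to 61.4 in the prefrontal cortex and 955 to 8411 in the SN/VTA. Of 9 hippocampal genes Prox1, a factor of dentate granule cells, was lower by 1.23 and Nts by 3.05, and Neurod6 was the 1 higher. In the olfactory bulb list of 4, Pbx3 was lower by 2.09.

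Lists of glia and vessel cells gave 0 or 1 call each, beside 2.68% called higher and 1.83% called lower of all genes. At those shares lists of this size would also give few calls. Of 16 oligodendrocyte genes tested, only Ugt8, an enzyme of myelin lipid synthesis, was called lower, by 1.35, but 14 of the 16 had an adjusted p under 0.05 with a negative difference, beside 911 of all 9009 genes, and the list median was -0.75. Of 15 astrocyte genes Agt (angiotensinogen) was called lower, by 1.03, a call lost without the SHR prefrontal array, and the median was -0.22. In limma, 0 of 10 microglial, 0 of 10 vessel and 0 of 11 meningeal genes were called, with medians of 0.17, 0.14 and -0.02, and 0 of each had an adjusted p under 0.05. Of 32 genes for histone and DNA methylation enzymes tested, 0 were called, 4 had an adjusted p under 0.05 with a negative difference, a share near that of all genes (911 of 9009), and 0 with a positive one, beside 1026 of all genes. Kat2b, a histone acetyltransferase, came nearest at -0.97 ± 0.17.

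Choroid plexus genes, which a dissection can carry over, were called lower in 2 of 5 tested, Otx2 and Sostdc1, and Sostdc1 lost its call without the SDpcb prefrontal array. Ttr (transthyretin) had prefrontal signals of 24.6 (SDpcb), 761 (SD), 480 (SHR) and 197 (WKY), against 3876 to 14168 in the hippocampus and 221 to 20978 in the vermis, and did not pass the test (adjusted p = 0.056). The summed choroid plexus signal was 1636 in the SDpcb prefrontal cortex and 3789 to 5026 in the other 3. The summed meningeal signal was 3975 in the WKY prefrontal cortex and 11763 to 12322 in the other 3. These sums move with single prefrontal arrays, and their part in the results was not tested.

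The 4 strain groups gave similar pictures of the prefrontal cortex, described over probe sets and not over independent samples. The within-group differences of 15521 probe sets correlated at 0.459 (SDpcb and SHR) to 0.658 (SHR and WKY). All 4 differences were at least 1 for 205 of the 440 higher probe sets and at most -1 for 76 of the 292 lower ones. Some lower calls came from 1 array. Ddx55, an RNA helicase, had a prefrontal signal of 6.57 in SD and 110 to 161 in the other 3, against 93.3 to 221 on all other arrays. Faap20 and Zfx had the same pattern, at 10.9 and 8.11 in the SD prefrontal cortex and at least 130 and 92.1 in the other 3. Without that array their differences were -0.15 for Ddx55, -0.23 for Faap20 and -0.44 for Zfx, and all 3 lost their call.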

How the data were processed

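The authors deposited 1 intensity per probe set and array (Affymetrix Rat RAE 230 2.0); per the submitters' processing notes the signals come from MAS5, with no version named. Per the labels' protocols RNA was purified with RNeasy columns and labelled with the Ovation kit. Of 31099 probe sets, 57 controls were left out; 20826 of the other 31042 had 1 gene symbol in the platform annotation, 436 several and 9780 none. On the log2(signal + 1) scale, probe sets in the brighter part of the table by mean (about 116 or more, 15521 in all) entered a limma 3.58.1 fit in R 4.3.3. Its terms were region and strain group (15 residual degrees of freedom), moderation used a trend, and two-sided p-values were adjusted by Benjamini-Hochberg. Strain group was kept as a block because the 6 regions of a group come from one set of rats. Deviations of the prefrontal array from its region mean correlated at 0.576 to 0.667 with those of the other regions of its own group. With those of another group the correlation was at most -0.041. Deviations from a region mean cancel over the strain groups, so negative values between groups follow from the calculation. Strain and array brightness also enter these correlations, and their parts were not tested. The number of arrays limits precision. Named genes were the 3 markers, the 20 highest and 12 lowest called genes with 1 sign in all strain groups, up to 10 above and 6 below every region, up to 4 called members per list, label checks, and the 6 called genes with the widest range. There were 28 lists with 583 genes, 512 on the array and 350 tested. Members and lists were chosen with earlier results of these data known. The fit was tested on simulated data. Alternatives covered normalization, pseudocount, filter, thresholds, weights, the block and left-out arrays or regions.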

Additional observations from a re-analysis of the deposited data

Results flagged for a closer look

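Among the 107 named genes and 28 summed lists, 12 of 135 sets of 4 prefrontal values held 1 value far from the other 3 by Dixon's test at the 95% level. Chance gives about 1 in 20 for values not chosen by their spread, a rate that does not apply here as a whole, since Ddx55 and Faap20 were named for their wide range and Pcp2 for the WKY array. In the SDpcb group the log2 difference of the prefrontal cortex from the other regions stood apart for Ephx4 (2.81), Dach1 (-3.89), Ccn3 (1.16) and Ttr (-4.70). In the SD group it did so for Tafa1 (1.35), Plxna1 (0.89), Ddx55 (-4.45) and Faap20 (-4.32). In the WKY group it did so for Kcnj4 (1.75) and Pcp2 (2.61). The summed signal of the potassium channel list was highest in the SDpcb prefrontal cortex, at 52368, with 42492 to 43920 in the other 3. The summed signal of the meningeal list was lowest in the WKY prefrontal cortex, at 3975.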

How the results depend on the processing

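Of 2468 pairs of a called named gene and an alternative, 2304 kept direction and call, 164 kept direction only and 0 reversed, and 58 of the 90 genes kept their call throughout. Probe sets called higher (440) and lower (292) became 669 and 189 with each array centred on its median, 209 and 69 in the upper 25% by signal, 1319 and 1040 at a log2 minimum of 0.5, 1823 and 1529 with no log2 minimum, and 241 and 165 with 1 probe set per gene. With no filter 506 were higher and 667 lower, and with a minimum signal in at least 4 arrays 512 and 587. Probe sets above every region (23) became 52 with centring, 9 in the upper 25%, 37 with array weights, 106 at a log2 minimum of 0.5, 129 with none and 9 per gene. Those below every region (23) became 4 in the upper 25%, 12 from the 4 differences alone, 57 at 0.5 and 65 with none. The cause was not tested except where the rule itself sets how many are tested or pass. With no replicate block 391 were higher, 221 lower, 11 above and 17 below every region, so the block changed the third count by over 1.5 times, and Alb, Cabp1, Ccn3 and Fosb lost their call among higher genes. Leaving out 1 prefrontal array gave 420 to 449 higher, 250 to 344 lower, 20 to 25 above and 19 to 28 below every region; leaving out all 6 arrays of a strain group gave 419 to 450, 249 to 330, 19 to 23 and 19 to 25. With the vermis left out of the mean, 348 were higher and 294 lower, and Tafa1, Lmo4, Lhx2, Camk2n1, Fosb, Gabra5, Kcnj4 and Kcnq5 among higher genes and Cbln1, Zic4, Gdf10, Sostdc1, Ddx55, Faap20, Zfx and Pkib among lower genes lost their call. With the WKY prefrontal array and the vermis both left out, an alternative chosen after seeing the data, 314 were higher and 299 lower. Depth on arrays is limited by signal over background, which is unknown here.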
